A study of Mus musculus with 444 samples.

Results

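Adult mammary epithelial cells whose label numbers run from 48 to 188 were compared with the other adult cells, which carry the numbers 1 to 47 and 189 to 223. Cells were retained if at least 100000 read pairs and 1500 detected genes remained after mitochondrial and ribosomal protein genes were dropped. By this rule 107 of the 141 cells numbered 48 to 188 were retained, along with 28 of cells 1 to 47 and 17 of cells 189 to 223, so that 107 of 152 retained adult cells and of 444 listed cells in the series belong to the set described. The boundaries of the set were chosen from measured values, namely the reads of the non-coding RNA Rn7sk along the cell numbers, and every difference between the sets is therefore given as a description without a test.

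All 3 runs of numbers are adult cells of the same kind. They came from untreated adult mice of the inbred strain FVB/NJ, 10 weeks of age, and are labelled Total epithelium. Cells from several mice were pooled for each sort, gated against blood, endothelial and red cell antigens, and captured in the chambers of a Fluidigm C1 chip, where cDNA was made from the polyadenylated RNA of single cells. The labels tie no cell to an animal, a sort or a capture. Each set counts as 1 sample, and the cell numbers and a capture, sort or library batch cannot be told apart.

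The mammary duct has an outer layer of basal cells and an inner layer of luminal cells. Basal cells are mostly myoepithelial: they carry smooth muscle actin, Acta2, with the keratins Krt5 and Krt14, and squeeze milk along the duct under oxytocin. Luminal cells carry the keratins Krt8 and Krt18 and comprise progenitors, which make secretory proteins such as Wfdc18, Trf and Ltf, and mature cells, which sense estrogen, progesterone and prolactin through Esr1, Pgr and Prlr.

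Rn7sk, the RNA by whose reads the runs were separated, is a small nuclear RNA transcribed by RNA polymerase III that holds the elongation factor P-TEFb inactive. The gene lies at chr9:78175302-78175633 of mm10 and is annotated as non-coding. The last 100 bases of its transcript, taken from the GENCODE annotation of that build, are shown because cDNA was made from polyadenylated RNA. The longest run of A in this end, marked in capitals, is 3 bases, and the transcript ends in a run of 3 T.
Rn7sk, 3′ end: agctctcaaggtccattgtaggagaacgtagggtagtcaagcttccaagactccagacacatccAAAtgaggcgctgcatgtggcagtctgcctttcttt

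After every cell was thinned to 100000 read pairs, so that all were compared at the same depth, Rn7sk was detected in 103 of 107 cells numbered 48 to 188 (96.3%), with a lowest, median and highest value of 0, 36 and 1314 read pairs. It was detected in 3 of 28 cells numbered 1 to 47 and in 2 of 17 cells numbered 189 to 223, and never above 7 read pairs. Next to the lower boundary, cells 38, 42 and 43 had 0 read pairs, while cells 48, 49 and 50 had 51, 249 and 16. Next to the upper boundary, cells 186, 187 and 188 had 0, 37 and 33 read pairs, and cells 189, 190 and 192 had 0, 1 and 0. Over all adult cells, the retained cell nearest the depth minimum had 100883 read pairs, and the nearest one left out had 95770. For the gene minimum these were 1522 genes retained and 1473 left out.

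Cells 48 to 188 were retained more often than the rest, in 75.9% of cases (exact Clopper-Pearson 95% interval 68.0 to 82.7) against 54.9% (43.5 to 65.9) of the 82 other adult cells. These and all other intervals cover counting error only, and reads without molecular identifiers are not independent molecules. Retained cells had medians of 443126 read pairs in cells 48 to 188, 529474 in cells 1 to 47 and 283210 in cells 189 to 223, over a range of 118429 to 1167991. At equal depth the median number of genes was 2821, 2168 and 2631 in the same order. Mitochondrial genes held a median of 12.2%, 10.2% and 8.04% of the read pairs, and ribosomal protein genes 3.61%, 3.07% and 3.00%. The part of the number of genes per cell and of the mitochondrial share in the differences that follow was not tested.

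A group of cells inside the set stood apart from all other adult cells by their likeness to each other. Levels in single cells are given as CPM, read pairs scaled to a common total, where 1 read pair is 10 CPM. Pearson's correlation of log2(CPM + 1) between cells was taken over 9536 genes found in at least 5% of the retained cells. Over all 11476 pairs of cells its median was 0.32. Of the 135 pairs at 0.5 or more, 133 lay within cells 117 to 188, 1 within cells 48 to 116 and 1 within cells 1 to 47, and all 41 pairs at 0.6 or more lay within cells 117 to 188. The most similar pair, cells 149 and 152, reached 0.80. Within cells 117 to 188, close partners tended to be near each other in number: 22 of 229 pairs up to 5 numbers apart reached 0.6, against 18 of 455 pairs 6 to 20 apart and 1 of 801 pairs 21 or more apart. A partner at 0.5 or more was found for 46 of the 55 retained cells from 117 to 188, for 2 of the 52 from 48 to 116, for 2 of 28 from 1 to 47 and for none of 17 from 189 to 223. What joins these cells was not tested, and neither was whether cDNA or reads passed between neighboring chambers or libraries. Had they done so, a low level of a gene in a cell would not show that the cell expressed it, and the traces of 1 layer's genes in the other layer given below carry this limit. Values for cells 48 to 116 and 117 to 188 apart are given beside the main results. The boundary at 117 was set after this pattern was seen.

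**Figure D1:**
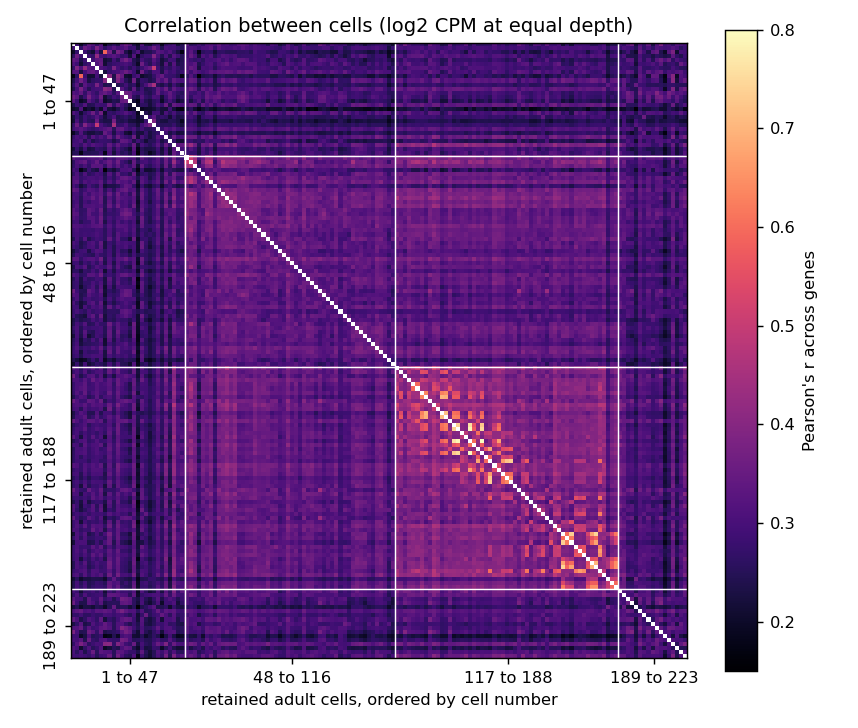
Correlation between every pair of the 152 retained adult cells, ordered by cell number along both axes, with color for Pearson's r over 9536 genes. The cluster of high values lies within cells 117 to 188, which hold all 41 pairs at 0.6 or more.

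Cells 48 to 188 were mostly basal by their markers, and the other adult cells were not. A cell was called basal at 300 CPM or more of both Acta2 and Krt14, and luminal below 300 CPM of Acta2 with 300 CPM or more of Krt8 and Krt18 together. By these cuts 71 of the 107 cells (66.4%, interval 56.6 to 75.2) were basal, 28 were luminal and 8 were neither, against 13 (28.9%, 16.4 to 44.3), 20 and 12 of the 45 other cells. The basal share was 50.0% in cells 48 to 116 and 81.8% in cells 117 to 188. Acta2 in the basal cells had a lowest, median and highest level of 360, 6140 and 51900 CPM in the set and of 1910, 10300 and 22160 CPM in the other cells. The levels overlapped throughout, and the same held for Krt14, with 330, 2560 and 21870 CPM against 310, 1460 and 6710 CPM. Among the 10 genes that led each class by fold, the basal classes held 2 to 4 basal markers and no luminal one, and the luminal classes 1 to 5 luminal markers and no basal one. In the basal class of the set the 2 markers were Acta2, which set the classes, and Cnn1. These lists are therefore no independent support for the classes. Cells within a factor of 2 of a cut were frequent, with 12 of 71 basal and 8 of 28 luminal cells of the set.

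Other cell types were scarce. At least 3 fibroblast markers at 100 CPM or more were found in 7 of the 107 cells and in 6 of the 45 others. No cell of the set reached this for immune, endothelial, pericyte or Schwann cell markers, against 1, 2, 1 and 0 of the other cells. The 8 cells of the set in neither class carried markers of both layers. Their luminal epithelial markers had a median sum of 13245 CPM, against 530 CPM in the 12 unclassed other cells, whose fibroblast sum had a median of 900 CPM against 50 CPM. Contractile markers had a median sum of 7825 CPM in the set against 1340 CPM, and basal keratins and regulators 2555 against 3850 CPM. At least 3 contractile markers at 100 CPM or more were found in 7 of the 8 cells and in 5 of the 12.

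The layer markers were less exclusive in cells 48 to 188 than in the rest, in both directions. Of the 71 basal cells of the set, 63 (88.7%, interval 79.0 to 95.0) also passed the luminal keratin cut, against 7 of 13 other basal cells (53.8%, 25.1 to 80.8). Krt18 was found in 69 of 71 and 11 of 13 basal cells, at medians of 460 and 120 CPM. In the luminal cells the median of Krt18 was 10285 CPM (950 to 37560) against 2300 CPM (90 to 7020).

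**Figure D2:**
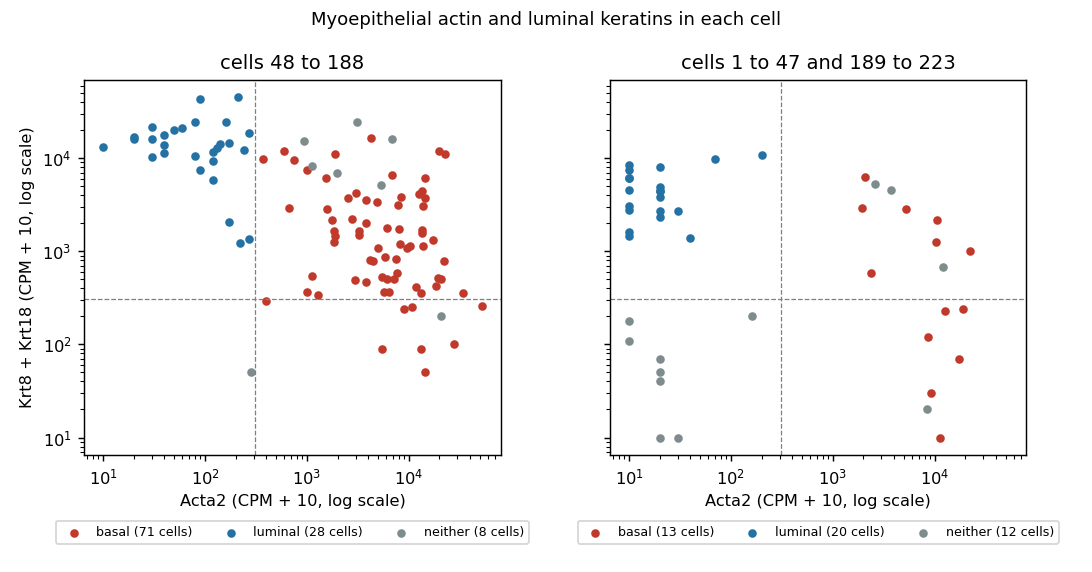
Acta2 against the sum of Krt8 and Krt18 in every retained cell (CPM + 10, log scales), with cells 48 to 188 on the left and the other adult cells on the right, colored by class. Dashed lines mark 300 CPM; 63 of 71 basal cells on the left and 7 of 13 on the right lie above the horizontal line.

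Basal genes were found at low levels in most luminal cells of the set. Acta2 itself, the smooth muscle actin, was detected in 27 of 28 luminal cells at a median of 80 CPM (0 to 260), against 11 of 20 other luminal cells at a median of 10 CPM (0 to 190). This gene set the class. With all cuts at 100 CPM in place of 300, the luminal class held 15 cells of the set, and 12 and 9 cells of the runs 1 to 47 and 189 to 223. Tagln, an actin-binding protein of smooth muscle, was detected in 25 of 28 cells against 4 of 20. Its median in the luminal cells of the set was 50 CPM, compared with 4460 CPM in the basal cells of the same set. Vim, the intermediate filament vimentin, was found in 16 of 28 luminal cells against 0 of 20, which allows a share of up to 15.0%. Col17a1, a collagen of the hemidesmosome, was found in 15 of 28 against 0 of 20, Krt5 in 13 of 28 against 1 of 20, and the contractile regulator Cnn1 in 14 of 28 against 1 of 20.

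These traces were present in both number blocks, also in cells 48 to 116, of which 2 had a close partner by correlation. Tagln was detected in 18 of 20 luminal cells from 48 to 116 and in 7 of 8 from 117 to 188, and Vim in 8 of 20 and 8 of 8. By summed levels, 10 of the 13 contractile genes that reached 20 CPM in the luminal class were at least 4-fold higher in the set, with a median log2 ratio of 2.35, and none was 4-fold lower. Only 13 of 20 listed contractile genes and 6 of 18 basal keratins and regulators reached this minimum. Genes nearly absent from the other luminal cells could reach it only through the set, so these list counts and medians are no support for a difference. Over all 20 contractile genes, the luminal detection share was above both other runs for 16 and below both for 0. Of all 6705 protein-coding genes compared in luminal cells, 21.2% were 4-fold or more higher and 22.6% lower, with a median log2 ratio of -0.13. Basal keratins and regulators were 4-fold higher in 5 of 6 genes (median 3.92), and extracellular matrix genes in 8 of 14, with 2 lower (median 2.07). With the cuts at 100 CPM the median of the contractile genes was 2.55 and that of the matrix genes turned to -0.84. Some of these sums rested on few cells. For Myl9, a light chain of myosin, 1 cell held 95% of the 834 read pairs in the luminal cells of the set, and for Col17a1 94%.

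Progenitor genes led more often in the luminal cells of the set. The summed level of 18 progenitor markers exceeded that of 19 mature markers in 16 of 28 luminal cells (57.1%, interval 37.2 to 75.5), against 5 of 20 (25.0%, 8.66 to 49.1). These shares were 11 of 20 and 5 of 8 in the blocks 48 to 116 and 117 to 188, and 3 of 11 and 2 of 9 in the runs 1 to 47 and 189 to 223. The median progenitor sum was 20620 CPM in the set (70 to 134370) and 430 CPM in the others (0 to 49580), and the median mature sum was 6730 CPM (30 to 60370) and 29365 CPM (100 to 51130). In 4 of the 28 cells, all from 48 to 116, the sums were within a factor of 2 of each other, and in none of the 20 others.

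**Figure D3:**
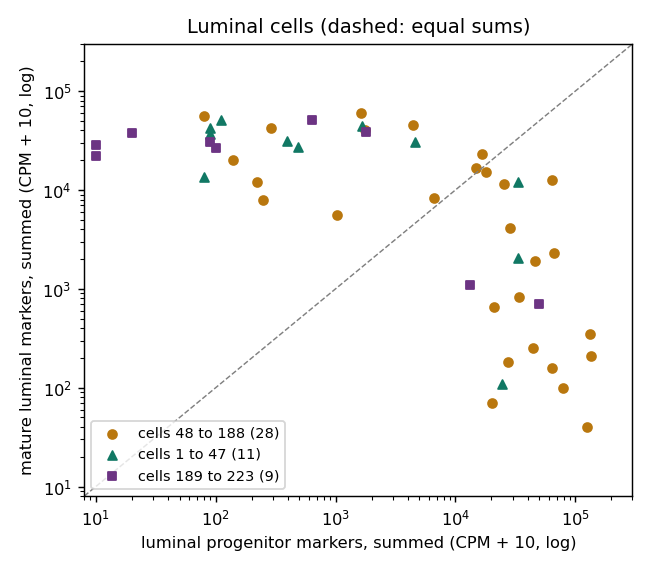
Summed CPM of 18 progenitor markers against 19 mature luminal markers in every luminal cell (log scales), by run of cell numbers. The progenitor sum is on the horizontal axis. Cells below the diagonal have the higher progenitor sum, 16 of 28 in cells 48 to 188 and 5 of 20 in the other cells.

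Among the progenitor genes, Ltf, the iron-binding lactotransferrin, was detected in 14 of 28 luminal cells of the set and in 0 of 20 others, and its summed level of 793 CPM was at least 488-fold higher, counted against a floor of 3 read pairs over the other luminal cells. A single cell held 64% of that sum. Wfdc18, a secreted protease inhibitor homolog, stood at 8819 against 1543 CPM in the summed luminal cells (5.72-fold, interval 5.50 to 5.94) and was detected in 25 of 28 against 9 of 20. Trf, the iron carrier transferrin, stood at 13770 against 2725 CPM (5.05-fold, 4.91 to 5.21). Altogether 8 of 15 progenitor genes that reached 20 CPM were 4-fold higher and 1 was lower (median log2 ratio 2.08). Of 17 mature luminal genes 0 were 4-fold higher and 6 lower (median -1.39). Over all protein-coding genes compared in luminal cells, 21.2% were higher and 22.6% lower. Ltf, absent from the other luminal cells, could reach 20 CPM only through the set. These counts and medians are therefore no support for a difference.

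Receptors of mature cells were found less often or at lower medians in the set. Prlr, the prolactin receptor, was detected in 25 of 28 luminal cells at a median of 1190 CPM (0 to 26180), against 20 of 20 at 8385 CPM (20 to 33220). The ranges overlapped, and within the set the median was 2335 CPM in cells 48 to 116 and 60 CPM in cells 117 to 188. Pgr, the progesterone receptor, was detected in 8 of 28 against 11 of 20 cells, and Esr1, the estrogen receptor, in 3 of 28 against 7 of 20. Fxyd2, a regulatory subunit of the sodium pump, was detected in 2 of 28 against 15 of 20 luminal cells. Since the mix of progenitor and mature cells differed between the sets, a lower receptor level and fewer mature cells cannot be told apart in the sums.

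Progenitor genes were also traced in the basal cells of the set. Wfdc18 was detected in 57 of 71 basal cells at a median of 120 CPM (0 to 14130), against 3 of 13 other basal cells at 0 CPM (0 to 320). Plet1, a surface protein of progenitors, was detected in 50 of 71 against 3 of 13. Cd14, a co-receptor for bacterial lipopolysaccharide, was found in 26 of 71 and Ltf in 18 of 71, both against 0 of 13, which allows a share of up to 23.1%. Wfdc18 reached 24 of 26 basal cells from 48 to 116, at a median of 1125 CPM, and 33 of 45 from 117 to 188, at a median of 70 CPM. The ratio of these genes had a median of 1.68 on the log2 scale, 2.18 for cells 48 to 116 alone and 0.87 for cells 117 to 188 alone. By summed levels 4 of 14 progenitor genes were 4-fold higher in the basal cells of the set and 4 were lower, against 27.1% higher and 15.4% lower of 6941 protein-coding genes. The lower ones, Rspo1, Plb1, Aldh1a3 and Hp, rested on 1 cell each for 94% or more of their read pairs in the other basal cells.

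Most genes of the basal layer were within 4-fold between the basal cells of both sets. The median log2 ratio of 19 contractile genes in basal cells was -0.20, with 2 genes 4-fold higher and 2 lower, and that of 17 basal keratins and regulators was 0.29, with 3 higher and 0 lower. The median over all protein-coding genes was 0.34. The 3 higher genes were Snai2, a zinc finger transcription factor of the Snail family, also known as Slug, with 494 read pairs against 1, Irx4, a homeobox factor, and Sfrp1, a secreted Wnt antagonist, at 184 against 7.39 CPM. Oxtr, the oxytocin receptor, was 4.79-fold lower in the set (209 against 1002 CPM, interval 4.43 to 5.18), though detected in 53 of 71 and 11 of 13 basal cells. Krt5 and Mylk, the myosin light chain kinase, had medians of 120 and 380 CPM in the basal cells of the set against 480 and 1490 CPM in the others, while Krt17 stood at 2180 against 410 CPM. The ranges of all 3 genes overlapped between the sets.

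In basal cells, lipid synthesis genes had a median log2 ratio of 1.78, beside 0.34 over all protein-coding genes. Of 17 such genes 7 were 4-fold higher and 1 lower, beside 27.1% and 15.4% of all genes. Acly, which makes cytosolic acetyl-CoA, had 680 read pairs in the set against 3 in the other basal cells (41.6-fold, interval 14.2 to 202), with detection in 64.8% against 7.69% of cells. Scd1, the stearoyl-CoA desaturase, was 31.5-fold higher (17.5 to 63.1) and was detected in 60.6% against 23.1%. The median ratio of the list was 1.10 for cells 48 to 116 alone, 1.98 for cells 117 to 188 alone and 4.76 against cells 189 to 223 alone. Cd36, a fatty acid transporter, was detected in 31.0% of the basal cells of the set and in 0 of 13 others. In the luminal class the same list had a median of -0.71, with 2 of 18 genes higher and 3 lower, beside 21.2% and 22.6% of all genes.

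In basal cells, stress genes had smaller median ratios than the lipid synthesis genes. Heat shock genes had a median log2 ratio of 0.70 in basal cells, with 4 of 15 genes 4-fold higher, a share near the 27.1% of all basal comparisons, and 0.37 in luminal cells, and 0.02 in basal cells once those past the cuts of both classes were left out. Hspa1a and Hspa1b, near-identical genes whose reads the counting could not fully separate, were 7.35-fold and 11.1-fold higher in basal cells. Genes of the endoplasmic reticulum stress response had medians of 0.69 in basal and 1.17 in luminal cells, beside 0.34 and -0.13 over all protein-coding genes. Immediate early genes, which respond to dissociation and other stimuli within minutes, had medians of -0.36 and 0.00, with 2 of 21 basal genes higher and 2 lower. Translation factors had 0 of 23 genes past 4-fold in either class, with medians of 0.33 and 0.33, nuclear genes of the respiratory chain medians of 0.04 and -0.44 over 73 and 74 genes, and proteasome subunits medians of -0.11 and -0.15.

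Milk protein genes were split along the cell numbers in an uneven way. Csn2, beta-casein, was detected in 7 of 71 basal and 4 of 28 luminal cells of the set, against 7 of 13 and 12 of 20 others. All of these cells of the set lay in 48 to 116, and 0 of the 53 classed cells from 117 to 188 held a read pair of Csn2 or of Csn1s2a, another casein. Csn1s2a was detected in 13 of 71 and 7 of 28 cells against 8 of 13 and 12 of 20. Csn3, kappa-casein, did not share this pattern and was detected in 61 of 71 and 24 of 28 cells against 10 of 13 and 14 of 20. Csn1s1, a further casein, was detected in 34 of 71 and 18 of 28 cells against 8 of 13 and 12 of 20. Its share over all cells was 80.8% from 48 to 116 and 27.3% from 117 to 188. Lalba was detected in 7 of 71 and 9 of 28 cells against 1 of 13 and 4 of 20. Wap, the whey protein, was found in 1 of 99 classed cells of the set and in 1 of 33 others.

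Cycling cells were few in each set. At least 10 of 20 cell cycle genes were detected in 7 cells of the set, all basal and all within 117 to 188, and in 3 of the 45 others. Mki67, a marker of proliferating cells, was detected in 0 of 28 luminal cells of the set and in 7 of 20 others. The median log2 ratio of cell cycle genes was -4.38 in luminal cells, where 14 of 16 genes were 4-fold lower, beside 22.6% of all luminal genes. Such genes could reach the minimum of 20 CPM through the other luminal cells alone. Of these 20 cells, 1 had 10 or more cell cycle genes detected, and the highest cell held 26.3% of their summed level. In basal cells the median was 0.33, with -4.13 for cells 48 to 116 alone and 0.90 for cells 117 to 188 alone.

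Over all retained cells, 1054 of 7617 protein-coding genes (13.8%) were at least 4-fold higher in cells 48 to 188 and 1142 (15.0%) at least 4-fold lower, by sums of thinned counts scaled to CPM of protein-coding read pairs with a prior of 1 CPM. In the basal class these numbers were 1878 and 1067 of 6941, and in the luminal class 1424 and 1518 of 6705. The runs 1 to 47 and 189 to 223, compared with each other in the same way, had 1703 (23.8%) and 1522 (21.3%) of 7148 genes past 4-fold, a larger share than between the set and the others. These 2 runs hold fewer cells. Many such genes rested on a single cell: in the basal class 1 cell held 50% or more of the read pairs for 42.1% of the higher and 93.3% of the lower genes, and in the luminal class for 71.0% and 81.1%. Of 5182 genes compared in both classes, 328 were 4-fold higher in both and 194 lower in both, while 225 were higher in basal and lower in luminal cells and 110 the reverse.

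The share of cells in which a gene was detected depends less on single cells, and was therefore compared between all 3 runs, a measure added after the sums were seen. A gene was singled out where its share was 30 percentage points or more above, or below, that of both other runs. Among 5762 genes with a detection share of 20% or more in some run, 229 (3.97%) were above in cells 48 to 188 and 27 (0.469%) below. For cells 1 to 47 the same counts were 15 (0.260%) and 68 (1.18%), and for cells 189 to 223 they were 54 (0.937%) and 21 (0.364%). Of the 229 genes, 223 had the same direction in basal cells alone and 228 in luminal cells alone. The classes and number blocks are parts of the cells from which the genes were chosen. Their counts, here and below, are therefore no independent support. The gap of 30 points was met by 69 of them in cells 48 to 116 alone and by 225 in cells 117 to 188 alone, the block with more genes per cell, at medians of 3443 against 2278. Without the cells that had a partner at a correlation of 0.5 or more, 85 genes in place of 229 were above and 29 in place of 27 below. Under this setting the counts above were 30 for cells 1 to 47 and 110 for cells 189 to 223. In basal cells alone 294 genes were above in the set, 48 in cells 1 to 47 and 600 in cells 189 to 223. A larger count above was thus not particular to the set under these settings. Exon length and GC content of the genes differed little, with medians of 3388 bases and 47.4% for those above, 3446 bases and 46.8% for those below, and 3112 bases and 48.0% for all genes considered.

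**Figure D4:**
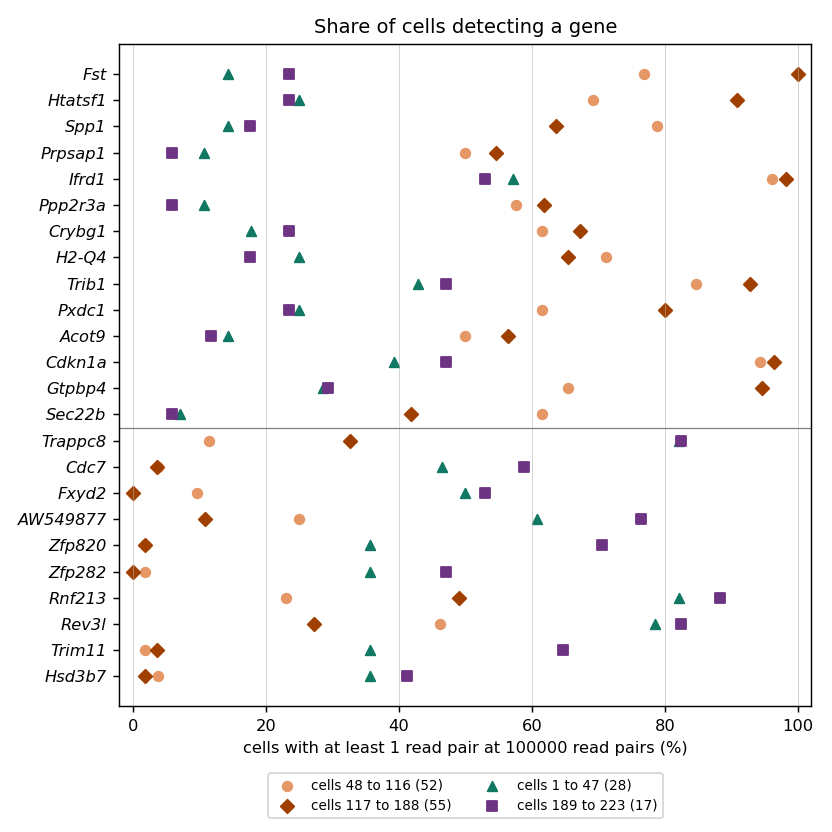
Percent of cells detecting a gene (at least 1 read pair of 100000), in cells 48 to 188 and in the other runs. Of all genes considered, 229 were 30 points or more above both other runs and 27 were below.

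In both number blocks and in both classes, 38 genes (0.659%) kept the gap above and 10 (0.174%) the gap below. The widest gap above was that of Fst, follistatin, a secreted inhibitor of activin, at chr13:114452262-114458989. It was detected in 95 of 107 cells (88.8%), in 4 of 28 cells from 1 to 47 and in 4 of 17 from 189 to 223. Both blocks took part, with 40 of 52 and 55 of 55 cells. In basal cells its level had a lowest, median and highest value of 0, 380 and 6190 CPM in the set and of 0, 0 and 1600 CPM in the others, and in luminal cells 20 of 28 against 0 of 20 held a read pair. Its summed level was 549 against 131 CPM over all cells, 4.19-fold higher (interval 3.84 to 4.59).

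Cdkn1a, an inhibitor of cyclin-dependent kinases, was detected in 102 of 107 cells of the set, in 11 of 28 cells from 1 to 47 and in 8 of 17 from 189 to 223, and in luminal cells in 27 of 28 against 4 of 20. Its summed level was 411 against 125 CPM (3.28-fold, interval 3.00 to 3.60). Ifrd1, a transcriptional co-regulator, was found in 104 of 107 cells against 16 of 28 and 9 of 17. Trib1, a pseudokinase that directs protein degradation, was found in 95 of 107 against 12 of 28 and 8 of 17, although its summed level was 183 CPM in the set and 224 CPM in the others. Adamts1, a secreted metalloprotease, was detected in 97 of 107 against 13 of 28 and 6 of 17, and Spp1, the matrix protein osteopontin, in 76 of 107 against 4 of 28 and 3 of 17. For Spp1 the sums pointed the other way, at 2242 against 4348 CPM, and a single cell held 83.3% of the latter. Detection and summed level thus did not move together for every gene.

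The other genes of the 38 described here were of varied function. Fermt2, an integrin activator, was detected in 80 of 107 cells against 10 of 28 and 7 of 17, and Tes, a focal adhesion protein, in 90 of 107 against 10 of 28 and 6 of 17. Atf2, a transcription factor of the stress kinase pathway, was found in 81 of 107 against 7 of 28 and 4 of 17. Sec22b, a vesicle fusion protein, was found in 55 of 107 against 2 of 28 and 1 of 17, and Ldhb, a subunit of lactate dehydrogenase, in 60 of 107 against 4 of 28 and 3 of 17. H2-Q4, a class I histocompatibility gene of a family of close copies, was detected in 73 of 107 against 7 of 28 and 3 of 17, and its counts are uncertain for that reason.

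Below both other runs, Trappc8, a subunit of a vesicle tethering complex, was detected in 24 of 107 cells of the set, against 23 of 28 and 14 of 17. Its share was 11.5% in cells 48 to 116 and 32.7% in cells 117 to 188. In luminal cells its summed level was nevertheless 129 CPM in the set and 65.0 CPM in the others. Cdc7, a kinase that fires replication origins, was detected in 4 of 107 against 13 of 28 and 10 of 17, with a summed level of 3.60 against 107 CPM (29.6-fold lower, interval 21.1 to 42.9). Zfp820 and Zfp282, zinc finger proteins, were detected in 2 and 1 of 107 cells, against 10 of 28 and 12 of 17 for the former and 10 of 28 and 8 of 17 for the latter. Rev3l, the catalytic subunit of the translesion polymerase zeta, was detected in 39 of 107 against 22 of 28 and 14 of 17, and Rnf213, a large ubiquitin ligase, in 39 of 107 against 23 of 28 and 15 of 17. Trim11, Hsd3b7, AW549877 and Fxyd2 completed the 10.

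**Figure D5:**
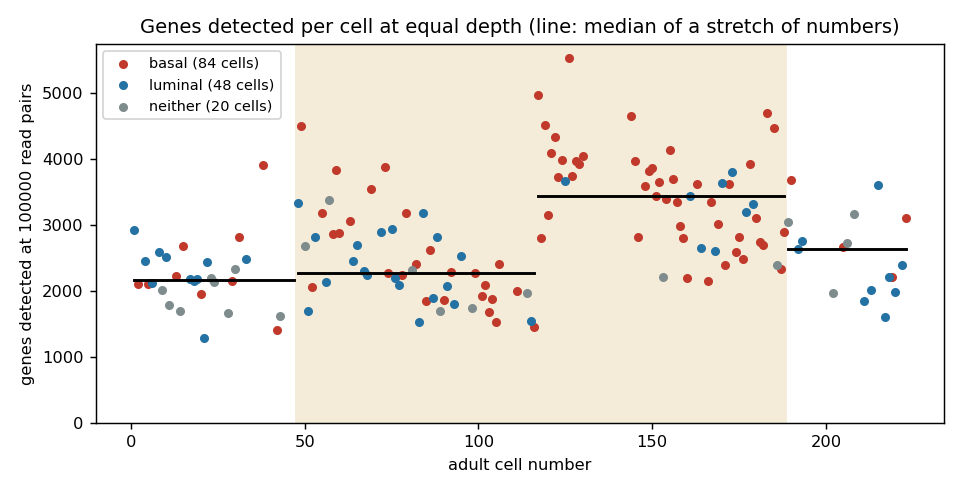
Retained adult cells by cell number, with the set lying from 48 to 188. Fst was detected in 95 of 107 cells of the set, against 8 of 45 outside.

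Genes named from here on had to reach 20 CPM and 25% of the cells in the set where they were higher, with under 50% of the sum in a single cell. This filter is harder to pass in the smaller set of other cells, so the number of genes passing it in each direction is not a result. The 10 with the largest difference upward in both classes were Dedd, Fosl1, Mtmr4, Zbtb38, Lypd3, Nup210l, Emc4, Ccdc86, Mpc1 and Lztfl1. Fosl1, a subunit of the transcription factor AP-1, was detected in 18 of 71 basal and 8 of 28 luminal cells of the set and in 0 of 13 and 0 of 20 others, which put its summed level at least 15.1-fold and 20.8-fold higher. Mtmr4, a phosphoinositide phosphatase of endosomes, was detected in 29 of 107 cells and in 0 of 45. Mpc1, a subunit of the mitochondrial pyruvate carrier, was detected in 50 of 107 cells against 8 of 45, at 43.9 against 2.39 CPM (18.3-fold, interval 9.86 to 38.5). Each of these 10 genes was found in under 50% of the cells of the set. The loci of all but Mtmr4 and Lztfl1 overlap other genes, so that their counts are uncertain.

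The 10 genes with the largest difference downward in both classes were Phtf1, Slc7a2, Nck2, Prrc2b, Ndufv2, Polb, Rab6a, Mrpl42, Osbpl9 and Cd164. Nck2, an adaptor of receptor tyrosine kinases, stood at 69.5 against 429 CPM in basal and at 98.3 against 1629 CPM in luminal cells, with detection in 20 of 28 luminal cells of the set and 20 of 20 others. Slc7a2, a transporter of cationic amino acids, was detected in 12 of 28 luminal cells against 18 of 20, and the log2 ratio of its sums was -2.81 in the luminal and -2.87 in the basal class. Cd164, a sialomucin, was found in most cells of both sets, 93 of 107 and 44 of 45, and was 3.45-fold lower in the set (943 against 3254 CPM, interval 3.36 to 3.54). Phtf1 was 9.77-fold lower (7.67 to 12.6), with detection in 15 of 107 against 8 of 28 and 12 of 17 cells, and an opposite-strand transcript overlaps its locus. The loci of Prrc2b, Ndufv2, Polb, Rab6a and Osbpl9 also overlap other genes.

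Within basal cells alone the largest differences upward were those of Synj2bp, Pltp, Gtf2f1, Elovl1, Fam32a and Stk11, all of them absent from the 13 other basal cells. Synj2bp, a mitochondrial outer membrane protein, was detected in 44 of 71 basal cells and its summed level of 320 CPM was at least 130-fold higher. Fam32a was detected in 48 of 71, and Elovl1, a fatty acid elongase, in 30 of 71. The loci of Synj2bp, Elovl1, Pltp and Stk11 overlap other genes, which makes their counts uncertain. In the luminal class the ratio of Synj2bp was 0.79 on the log2 scale and that of Fam32a 0.93. Downward, the basal genes were Zfp820, Zfp979, Trappc8, Dnajc7, Unc50 and Rab5b, each detected in at most 10 of 13 other basal cells. Dnajc7, a co-chaperone, was 18.0-fold lower in basal cells (25.9 against 466 CPM), but all of its read pairs in the others came from cells 1 to 47, and against cells 189 to 223 alone its log2 ratio was 4.75.

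Within luminal cells alone the largest differences upward were those of Pdzd11, Fam107b, Dmkn, Arl4a, Sec22b and Isyna1. Sec22b was detected in 18 of 28 luminal cells of the set and in 0 of 20 others, and in 33 of 71 against 1 of 13 basal cells. Arl4a, a small GTPase, was detected in 14 of 28 against 2 of 20 luminal cells and in 47 of 71 against 2 of 13 basal cells, although its summed basal level was 270 against 343 CPM. Downward, the luminal genes were Pik3c2b, Bcl2l14, Exosc7, Trim25, Myb and Insig2. Pik3c2b, a phosphoinositide kinase, was detected in 0 of 28 against 8 of 20 cells, at least 375-fold lower. Myb, a transcription factor known in hormone-sensing luminal cells, was detected in 0 of 28 against 6 of 20, at least 107-fold lower. Bcl2l14, an apoptosis-related protein, was detected in 0 of 107 cells of the set and in 8 of 45 others.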

How the data were processed

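Deposited values were raw counts of read pairs per gene, made by the authors with Subread and featureCounts on mm10 with RefSeq genes; versions and the use of strand were not given in the sources used here, so overlapping genes and close copies are uncertain. Of 27179 gene identifiers 25275 matched a current gene, the rest holding 1.80% of the read pairs. After 15 mitochondrial and 125 ribosomal protein genes were dropped, 25135 genes stayed, 20879 of them protein-coding. Fewer adult cells passed the minimums here than the study kept, for a reason not found, so the cells are not the same set. Puberty cells were not used.

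Retained cells were downsampled to 100000 read pairs each (seed 1). Levels of single cells are CPM of all kept genes, where 1 read pair is 10 CPM. Levels of sets are summed counts in CPM of protein-coding genes that reached 20 CPM in a set, and fold intervals are exact binomial ones. Genes at 0 were set against a floor of 3 counts over the set. With 1 sample per set no test was made. The study's own model treated cells as replicates and was not repeated. TMM and upper-quartile factors came from edgeR 4.0.16 in R 4.3.3, and the rest from Python 3.11.15. The comparison was tested on simulated data.

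The named genes had to reach 20 CPM and 25% of cells in the higher set, in a larger share of cells than in the other, with under 50% of the sum in a single cell: 10 in each direction over both classes, ranked by the smaller ratio, and 6 in each direction within a class. Members, boundaries and gene lists were chosen with earlier results of these data known.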

Additional observations from a re-analysis of the deposited data

Results flagged for a closer look

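Other non-coding RNAs were singled out because they lie outside the protein-coding comparison and were far more frequent in cells 48 to 188 than in the other adult cells. Rpph1, the RNA of ribonuclease P, was detected in 69.2% of cells 48 to 188 (74 of 107, exact interval 59.5 to 77.7), against 3 of 45 others. Vaultrc5, a vault RNA, was detected in 61.7% (66 of 107, 51.8 to 70.9), against 2 of 45. The non-coding transcript 3110021A11Rik was detected in 29.9% (32 of 107, 21.4 to 39.5), against 0 of 45, which allows a share of up to 6.67%. Rpph1 was found in 43 of 52 cells from 48 to 116 and in 31 of 55 from 117 to 188. The role of a capture or library batch in these values cannot be told apart from the cell numbers.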

How the results depend on the processing

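Counts of genes past 4-fold depended on the treatment of low values. Over all cells the count of 2196 became 1070 with a prior of 10 CPM, 3405 for genes at 5 CPM or more, 3680 with no minimum and 1366 without the highest cell of each gene in each set. In basal cells 2945 became 1844, 4471 and 4919 under the former 3 settings, and in luminal cells 2942 became 4466 with no minimum and 1726 without the highest cell. Without the highest cell, the higher share of these genes was 70.4% in place of 48.0% over all cells and 89.5% in place of 63.8% in basal cells. The 229 genes of wider detection became 85 without cells with a partner at 0.5 or more, 95 for cells 48 to 116 alone, 895 for cells 117 to 188 alone and 103 with at least 3 read pairs. The same counts for cells 189 to 223 were 110, 92, 44 and 27, and for cells 1 to 47 they were 30, 26, 14 and 8. The 27 of lower detection became 50 for cells 48 to 116 alone, 9 with 3 read pairs, 57 in basal cells alone and 78 in luminal cells alone. The cause of these shifts was not tested beyond the construction of each setting. Of the named genes' ratios, that of Dnajc7 in basal cells changed sign, to 4.75 against cells 189 to 223 alone. Alternatives for cells 48 to 116, cells 117 to 188, similar cells and detection were chosen after seeing the data. No paired analysis was possible because the cell numbers pair no samples and no test was made.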

Other observations

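The lists of signalling and immune genes are given beside the shares over all protein-coding genes, of which 27.1% were 4-fold higher and 15.4% lower in the basal cells of the set, and 21.2% higher and 22.6% lower in its luminal cells. Several lists lay near these shares. Cxcl16, a chemokine that is also a membrane-bound scavenger receptor, was detected in 50.7% of the basal cells of the set against 7.69%, and its summed level was 28.9-fold higher (1102 against 7 read pairs, exact interval 14.0 to 72.0). In luminal cells it was detected in 46.4% against 5.00%, with 178 against 2 read pairs. Ccl2, a monocyte chemokine, was 5.72-fold lower in the basal cells of the set (4.92 to 6.65) at detection shares of 38.0% and 38.5%. A single cell held 81.7% of its 361 read pairs in the other basal cells, so this fold rests mostly on that cell. The chemokine and cytokine list as a whole had 3 of 8 genes 4-fold higher and 2 lower in basal cells, and 3 of 7 higher and 2 lower in luminal cells, all small counts.

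Antigen presentation genes had 3 of 7 genes 4-fold higher and 0 lower in basal cells, beside 27.1% and 15.4% of all genes. In luminal cells 3 of 10 were higher and 2 lower, beside 21.2% and 22.6%, all small counts. H2-D1, a class I heavy chain of a family of close copies, was 4.24-fold higher in luminal cells (3.97 to 4.54) and 2.40-fold higher in basal cells (2.20 to 2.62). In basal cells 6 of 19 Notch, Wnt and TGF-beta genes were higher and 2 lower, near the shares over all genes, among them Fzd1, a Wnt receptor, at 99.6 against 5.75 CPM, and Tgfbr2, a TGF-beta receptor, at 19.3 against 121 CPM. Interferon-stimulated genes had 3 of 12 higher and 1 lower in basal cells, and 1 of 11 higher and 3 lower in luminal cells, so that the higher share in basal and the lower share in luminal cells were near those over all genes.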
